A study of Arabidopsis thaliana with 30 samples.

Results

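Transcript levels of 36 genes for subunits of the 26S proteasome were followed in Arabidopsis thaliana seedlings given a mock treatment or methyl methanesulfonate (MMS), which alkylates DNA. The genes were taken by locus from a list of 19S and 20S subunit genes and the rule uses no measured value, although earlier results of these data were known when the list was proposed. All 36 were among the 20404 genes of the deposited table, and all passed the filter on low values, so each was tested. The list comprised 10 genes for the RPT ATPases, 12 for the RPN non-ATPase subunits, 7 for the alpha ring and 7 for the beta ring.

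The study compared wild type Columbia (Col) with mutants of the histone variant H2A.X (h2a.x-1, written X), of H2A.W (h2a.w-2, W), of both (h2a.x/w-2, XW) and of TONSOKU (tsk), a protein of replication-coupled repair. Each genotype was sampled after mock treatment and after MMS, in 3 replicates a group, which gave 10 groups and 30 libraries of paired-end reads of 150 nt. All plants had the Columbia background and were seedlings of 7 days, although the tissue is also labelled as leaves. The labels give neither the dose nor the duration of MMS, nor the kind of lesion in each allele, nor whether replicates were separate cultures, so p-values measure the spread between these samples.

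The 26S proteasome degrades proteins that carry ubiquitin chains. Its 20S core is a barrel of alpha and beta rings in which PBA1, PBB1 and PBE1 hold the proteolytic sites, and its 19S cap binds ubiquitin, removes the chains and unfolds the substrate with a ring of RPT ATPases. Many subunits are encoded by gene pairs in Arabidopsis, and the transcription factors NAC053 and NAC078 are known to raise subunit genes together when proteasome activity falls short.

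Libraries held between 15343687 and 25115027 reads over the listed genes. The TSK transcript was low in tsk, with 58, 56.6 and 45 normalized counts in the mock libraries against 147, 159.7 and 159 in Col. H2AXA, 1 of the H2A.X genes, was low in X, with 171, 195 and 209 against 1052, 1035 and 1033. GAMMA-H2AX, also an H2A.X gene, differed by a log2 value of -0.21 in X mock (limma, adjusted p = 0.12). HTA6, an H2A.W gene, was lower in W, with 776, 839.8 and 779.8 against 1112, 1133 and 1186. After MMS the log2 difference of HTA6 between W and Col was -0.024 (limma, adjusted p = 0.88). HTA7 and HTA12, also H2A.W genes, differed in W mock by -0.22 (limma, adjusted p = 0.25) and 0.48 (0.024). Transcript levels thus checked the X and W labels only in part. In the mock libraries labelled XW neither H2AXA (874 to 939.6) nor HTA6 (947 to 1037) was reduced to a similar degree. After MMS HTA6 was higher in XW than in Col, with means of 922 and 353 (log2 difference 1.38, limma, adjusted p = 8.6e-14). H2AXA, GAMMA-H2AX and HTA7 were then higher too, by 0.23, 0.40 and 0.54 (limma, adjusted p = 0.038, 4e-04 and 0.0015), and HTA12 was not called. Transcript levels thus did not check the XW label in either treatment. Leaf and root marker genes were above 0 in every library, but so was every gene of the filtered table, so this does not check the tissue. The first XW mock library stood apart from the other two of its group for the ATPase genes, whose summed normalized counts were 13774, 16754 and 16615, and values without it are given beside the main results for XW mock and the XW response.

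In mock-treated Col the subunit genes were well expressed, with a median of 970.1 normalized counts per kb of annotated exon against 165.3 for 20403 genes. By group mean all 36 lay above the median of all genes, but RPN5B was close to it, at percentile 50.3. Its libraries ran from 164.8 to 168.6 per kb. PBF1, a beta-ring gene, had the highest level of the 36 at 1604 ± 11.7 (SD, n = 3) per kb, followed by the ATPase genes RPT5A at 1479 ± 15.8 and RPT1A at 1380.1 ± 43.5. At the low end, RPN5B had 167 ± 1.91 and RPT5B 307 ± 6.62, so that the range spanned 9.62-fold. Medians on this scale were 797 for the ATPases, 916 for the RPN genes, 1087.5 for the alpha ring and 1003 for the beta ring. The order is coarse in the middle, since in 25 of the 35 pairs of neighbours the libraries of both genes overlapped. The 3 lowest were the second copies of pairs, AT5G20000, RPT5B and RPN5B.

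Most subunit transcripts rose by small amounts in Col under MMS. The 36 genes together held 53962, 54585 and 54718 normalized counts in the mock libraries and 66935, 71386 and 67081 in the MMS libraries, a ratio of means of 1.26. Of the 36, 27 rose and 0 fell (limma on log2 of the normalized count + 1, adjusted p under 0.05 over 20256 genes), or 75% beside 35.5% of all genes tested that rose. At an unadjusted p under 0.05, 28 rose and 0 fell, and DESeq2 and edgeR called 27 and 28. The median log2 change was 0.27, against 0.0052 over all genes. 1 gene went past 2-fold.

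**Figure D1:**
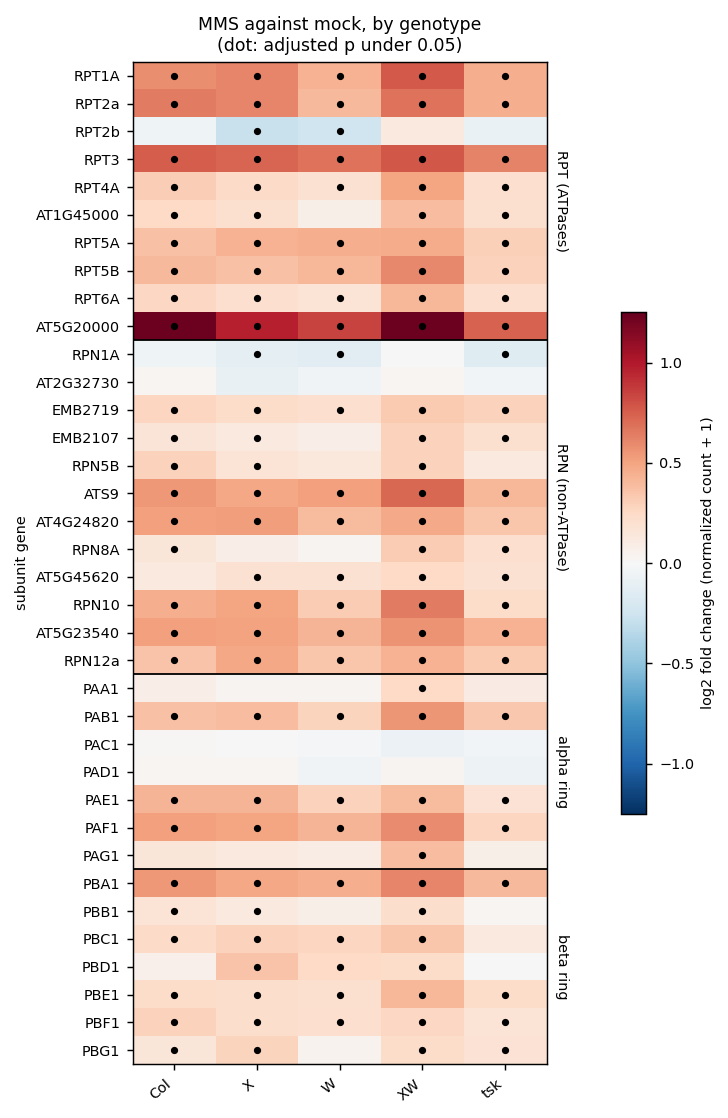
Log2 fold change, MMS against mock, of the 36 subunit genes (rows, grouped by role) in the 5 genotypes (columns); a dot marks an adjusted p under 0.05 in limma. AT5G20000 has the deepest red and RPT3 is red in every column, whereas RPT2b, RPN1A, AT2G32730, PAC1 and PAD1 have no dot for a rise in any column.

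Among the ATPases, which form the unfolding ring, 9 of 10 rose in Col, with a median log2 change of 0.38. AT5G20000, annotated as an AAA-type ATPase and lying beside RPT6A, had 563, 543 and 629.6 normalized counts in mock and 1326, 1589 and 1169 in MMS. No MMS library reached down to a mock library, and the log2 change was 1.23 ± 0.088 (SE), adjusted p = 5e-13. RPT3 had 2714, 2704 and 2645 in mock and 4224, 4966 and 4437 in MMS, again without overlap, a log2 change of 0.75 ± 0.051 (SE), adjusted p = 1.8e-13. For RPT2a the counts were 1698, 1747 and 1686 in mock and 2678, 2834 and 2566 in MMS, a log2 change of 0.65 ± 0.070 (SE), adjusted p = 2.4e-09. RPT1A went from 2673, 2705 and 2836 to 4022, 4409 and 3889.7, a log2 change of 0.58 ± 0.076 (SE), adjusted p = 7.8e-08. The other 5 that rose, RPT4A, AT1G45000, RPT5A, RPT5B and RPT6A, changed by 0.25 to 0.40 on the log2 scale. RPT2b, the second copy of RPT2, was the exception, with 999, 955 and 952 in mock and 909, 996 and 904 in MMS. Its groups overlapped and its log2 difference was -0.050 ± 0.084 (SE), adjusted p = 0.6.

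Of the 12 RPN genes, which build the lid and the scaffold of the cap, 9 rose in Col, with a median of 0.28. The largest log2 change among them was that of ATS9, which encodes RPN6 of the lid. ATS9 had 2048, 2065 and 2044 normalized counts in mock and 2952, 3130.5 and 2899 in MMS, and changed by 0.54 ± 0.046 (SE), adjusted p = 2.3e-11. AT5G23540, a protein of the Mov34/MPN/PAD-1 family, changed by 0.52, and AT4G24820, the RPN7 subunit, by 0.51. AT4G24820 overlaps AT4G24810 on the same strand over 20.6% of its length and a long non-coding RNA gene on the other strand over 11.8%, and since the strand of the libraries is not stated its reads are uncertain. RPN10, a ubiquitin receptor, changed by 0.45 and RPN12a by 0.36. EMB2719, with a PAM domain, changed by 0.27, EMB2107, a gene of RPN5, by 0.16, RPN5B, the second gene of RPN5, by 0.28 and RPN8A by 0.15. AT5G45620, with a PCI domain, had a log2 difference of 0.12, adjusted p = 0.11. Both large scaffold genes stayed close to their mock level. RPN1A had 2687, 2908 and 2786 in mock and 2599, 2768 and 2717 in MMS, and AT2G32730, the RPN2 subunit, had 3236, 3292 and 3269 and 3334, 3442 and 3186. Their groups overlapped, with log2 differences of -0.052 ± 0.049 (SE) and 0.024 ± 0.043.

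In the alpha ring, which gates the core, 3 of 7 genes rose in Col and the median log2 change was 0.15. These were PAF1 at 0.52 ± 0.054 (SE), PAE1 at 0.42 ± 0.048 and PAB1 at 0.37 ± 0.076. PAC1 had 1613, 1686 and 1685 in mock and 1587, 1701 and 1754 in MMS, and PAD1 had 1542, 1563 and 1636 and 1549, 1637 and 1619. In both of these genes the groups overlapped. PAA1 and PAG1 had log2 differences of 0.083 and 0.15 (adjusted p = 0.15 and 0.065). In the beta ring, 6 of 7 rose, with a median of 0.23. PBA1, which carries the caspase-like site, had 1386, 1378 and 1451 in mock and 2015, 2118 and 1993 in MMS, a log2 change of 0.54 ± 0.060 (SE), adjusted p = 5.1e-09. The genes of the other proteolytic subunits rose less in size, PBB1 by 0.17 and PBE1 by 0.23. PBC1 changed by 0.24, PBF1 by 0.28 and PBG1 by 0.15. PBD1 was not called at 0.068, and it overlaps an antisense long non-coding RNA gene over 30.1% of its length, so its reads are uncertain too.

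**Figure D2:**
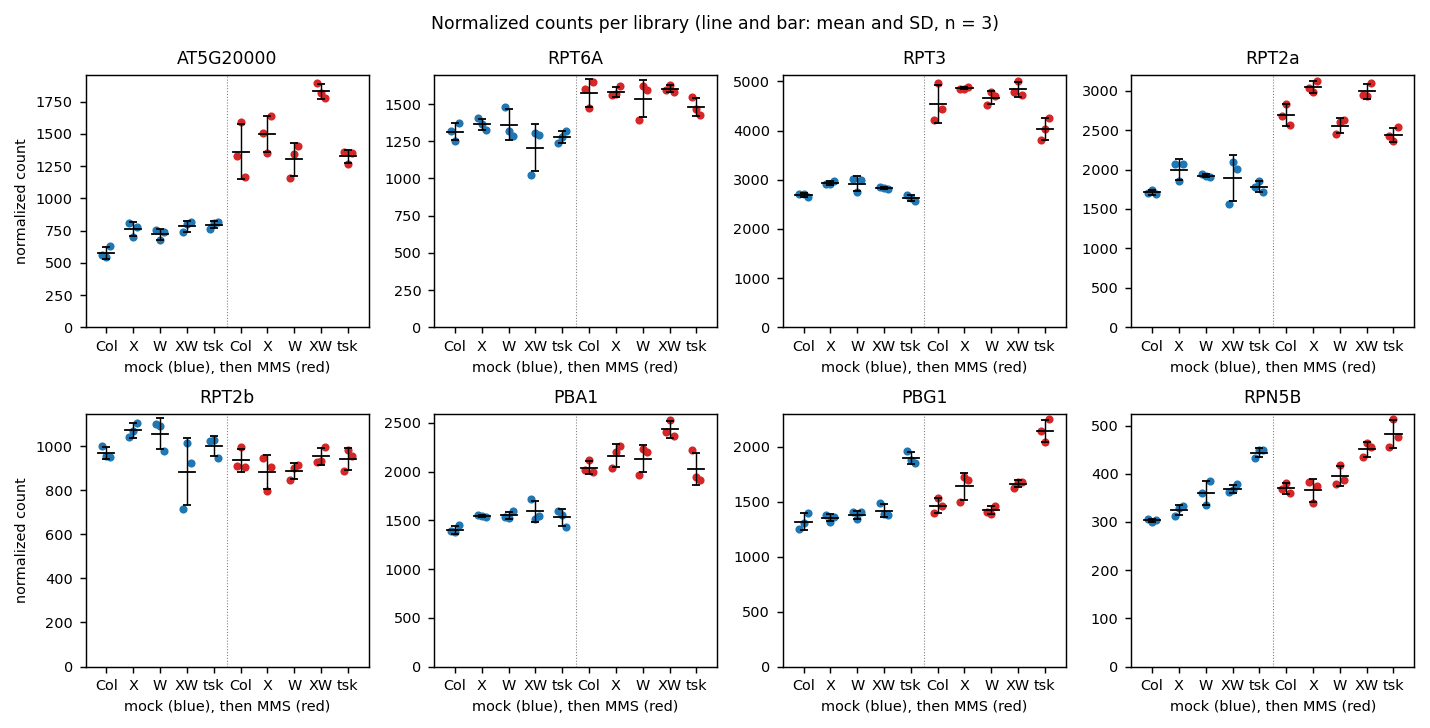
Normalized counts (vertical axis, from 0) of 8 subunit genes in each of the 30 libraries, mock in blue and MMS in red, by genotype (horizontal axis); lines and bars are the mean and SD of 3 libraries. RPT3, RPT2a, PBA1 and AT5G20000 have all MMS libraries above all mock libraries, RPT2b has not, and PBG1 and RPN5B are highest in tsk.

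All 5 genotypes showed the same broad pattern, each measured in its own mock and MMS libraries. In X, 28 of 36 rose and 2 fell, beside 36.3% and 36.9% of all genes. In W, 23 rose and 2 fell, beside 36.1% and 36.8%. In the libraries labelled XW, 31 rose and 0 fell, beside 36.2% and 35.5%, with 31 and 0 also at an unadjusted p under 0.05 and 31 calls by both DESeq2 and edgeR. In tsk, 25 rose and 1 fell, beside 35.5% and 35.6%. The median log2 changes were 0.26 in X, 0.21 in W, 0.39 in XW and 0.21 in tsk. The first XW mock library bears on the XW value, since without it the median was 0.33 and 32 genes rose.

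20 of the 36 genes rose in all 5 genotypes, 5 in 4 of them, 6 in 1 to 3 and 5 in none. Over all genes tested, 26% rose in all 5 genotypes. RPT3 had log2 values from 0.62 in tsk to 0.77 in XW. AT5G20000 varied more, at 0.98 in X, 0.85 in W, 1.22 in XW and 0.73 in tsk. RPT1A changed by 0.44 to 0.77 in the 5 genotypes, ATS9 by 0.41 to 0.72, RPT2a by 0.41 to 0.67 and PBA1 by 0.40 to 0.62. For these genes the highest values are those of XW, and without the first XW mock library they were 0.61 for RPT1A, 0.69 for ATS9, 0.54 for RPT2a and 0.67 for PBA1. Without it RPT3 was at 0.78 and AT5G20000 at 1.18 in XW. The 5 genes that rose in none were RPT2b, RPN1A, AT2G32730, PAC1 and PAD1. RPT2b fell by 0.28 on the log2 scale in X (adjusted p = 0.0037) and by 0.25 in W (adjusted p = 0.0091), and the call in W was lost on the FPKM values. RPN1A fell in X, W and tsk, by 0.12, 0.14 and 0.15. With reads scaled by library totals, which raises the median log2 change of all genes by up to 0.12, these 3 calls for RPN1A were lost. PAD1 was called higher in XW only without the first XW mock library, at 0.14.

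Across the 36 genes the log2 response of Col correlated with that of X at r = 0.934, of W at 0.930, of XW at 0.947 and of tsk at 0.931, against 0.941, 0.933, 0.904 and 0.934 over all 20256 genes. Without the first XW mock library the values for XW were 0.966 and 0.903. These are correlations across genes, which are not independent replicates, and no library is shared between the responses.

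**Figure D3:**
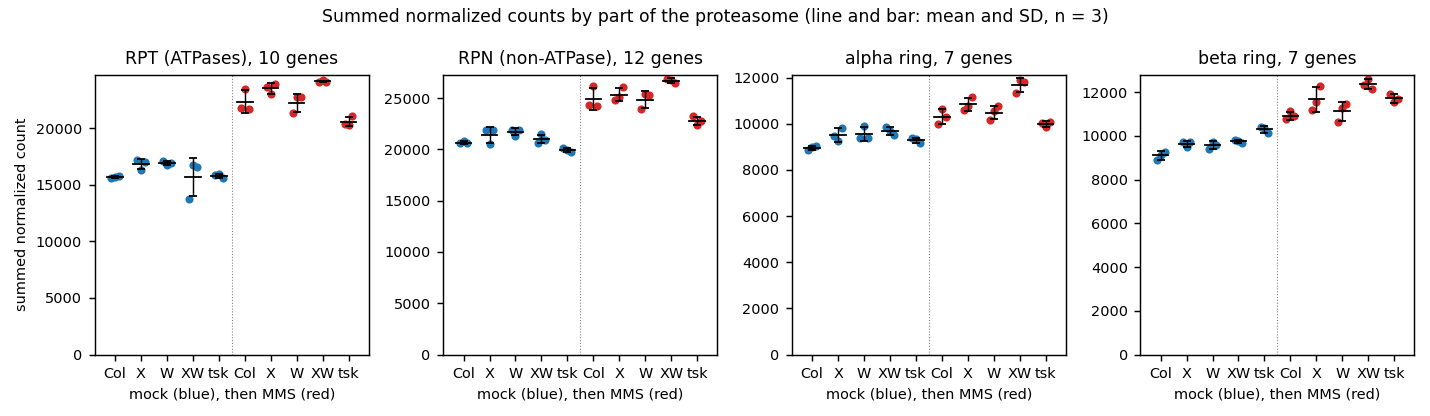
Summed normalized counts (vertical axis, from 0) of the ATPase, RPN, alpha-ring and beta-ring genes in each library, mock in blue and MMS in red, by genotype; lines and bars are the mean and SD of 3 libraries. The ATPase sum has the largest MMS to mock ratio of the 4 in each genotype, and the first XW mock library is low for the ATPases, at 13774, and not for the alpha or beta ring.

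Counts by role were alike in direction. Of the 10 ATPase genes 9 rose in X, 8 in W, 9 in XW and 9 in tsk, with medians of 0.40, 0.41, 0.55 and 0.29. Of the 12 RPN genes 9, 7, 10 and 9 rose, with medians of 0.21, 0.20, 0.32 and 0.22. Of the 7 alpha-ring genes 3, 3, 5 and 3 rose, with medians of 0.12, 0.094, 0.39 and 0.099. The alpha-ring median in XW rests on the first XW mock library, since without it the median was 0.25 and 6 genes rose. PAA1 and PAG1 were called in XW and in no other genotype, while the interaction of genotype and treatment passed for neither. Of the 7 beta-ring genes 7, 5, 7 and 4 rose, with medians of 0.27, 0.21, 0.26 and 0.17. Without that library the XW medians were 0.44 for the ATPases, 0.34 for the RPN genes and 0.27 for the beta ring. The summed normalized ATPase counts had an MMS to mock ratio of 1.42 in Col, 1.40 in X, 1.32 in W and 1.54 in XW. On this scale the ratio in tsk was the lowest. Without the first XW mock library the XW ratio was 1.45. The RPN sum had ratios from 1.14 in tsk to 1.27 in XW, and the alpha ring from 1.08 in tsk to 1.21 in XW. Those of the beta ring ran from 1.14 in tsk to 1.27 in XW. The low end depended on the scaling, since with reads scaled by library totals W lay below tsk for each role. The ratios in W and tsk were then 1.366 and 1.402 for the ATPases and 1.189 and 1.229 for the RPN genes. For the alpha ring they were 1.139 and 1.157, and for the beta ring 1.208 and 1.224.

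Related genes outside the 36 also changed with MMS in Col. Of 20 other gene copies of subunits, 14 rose and 1 fell in Col, with a median of 0.24, where 35.5% of all genes tested rose and 35.6% fell. The called genes with the smallest adjusted p were AT1G04810, a further RPN2 gene, at 0.72, MEE34, of the Mov34/MPN/PAD-1 family, at 0.87, and AT1G53780, a further regulatory ATPase, at 0.54. Of 7 genes for assembly factors, activators and regulators, 5 rose and 0 fell. They included NAC2 (AT5G04410), the gene of NAC078, at 0.75, PA200, an alternative activator of the core, at 0.57, and AT2G03430, an ankyrin repeat protein, at 0.70. Of 18 genes for ubiquitin, its activation and its receptors, 13 rose and 2 fell, among them UBP6, a deubiquitinase of the cap, at 0.97, UBQ10, a polyubiquitin gene, at 0.61 and the shuttle receptor gene DSK2 at 0.46. Of 10 genes of the COP9 signalosome, a complex built from the same domains as the lid, 6 rose and 0 fell, led by FUS5 at 0.55, COP8 at 0.56 and FUS12 at 0.41.

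Markers of other kinds moved in the same libraries. All 11 heat shock protein genes tested rose in Col, with a median log2 change of 4.20, and their summed counts had MMS to mock ratios from 10.9 in tsk to 18.6 in W. All 7 leaf markers fell, with a median of -1.06, and their summed level went from 651115, 639409 and 638932 to 332582, 322834 and 334048. Of the 6 root markers 5 fell and 0 rose, with a median of -0.70, and their summed level went from 69884, 76825 and 83845 to 31278, 25531 and 33616. None of these markers was at 0 in any library, which holds for every gene of the filtered table. The part of these markers in the change of the subunit genes was not tested. In such bulk samples, fewer cells of a type and less RNA per cell cannot be told apart.

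Pairs of gene copies for the same subunit shifted in some cases and not in others. On the scale of normalized counts per kb of exon, the ratio of RPT2a to RPT2b in Col was 1.92 ± 0.0708 (SD, n = 3) in mock and 3.13 ± 0.066 in MMS. In the other genotypes this ratio also lay higher in all MMS than in all mock libraries, up to 3.77 ± 0.296 in X. The ratio of RPT6A to AT5G20000 went from 1.68 ± 0.0646 in mock to 0.872 ± 0.18 in MMS, and was lowest in XW after MMS, at 0.646 ± 0.0206. Thus AT5G20000 was the less abundant copy in mock and, by group means, the more abundant one in MMS in all 5 genotypes. In contrast, RPT5A to RPT5B was 4.82 ± 0.116 and 4.69 ± 0.277, and RPT4A to AT1G45000 was 0.477 ± 0.0164 and 0.498 ± 0.0153, with overlapping libraries in both pairs. In the other genotypes the libraries of these pairs overlapped too, except for RPT4A to AT1G45000 in W, which was 0.502 ± 0.0145 in mock and 0.543 ± 0.00547 in MMS. The ratio of EMB2107 to RPN5B in Col was 5.78 ± 0.169 in mock and 5.31 ± 0.0366 in MMS, without overlap, and its libraries overlapped in the other genotypes. The coding sequences of RPT6A and AT5G20000 are 94.4% identical and those of RPT2a and RPT2b 89.6%, but no stretch of 150 nt, the read length, was shared between the coding sequences of any of the 5 pairs. How reads that match both copies were counted is not stated, so the split between copies is uncertain.

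**Figure D4:**
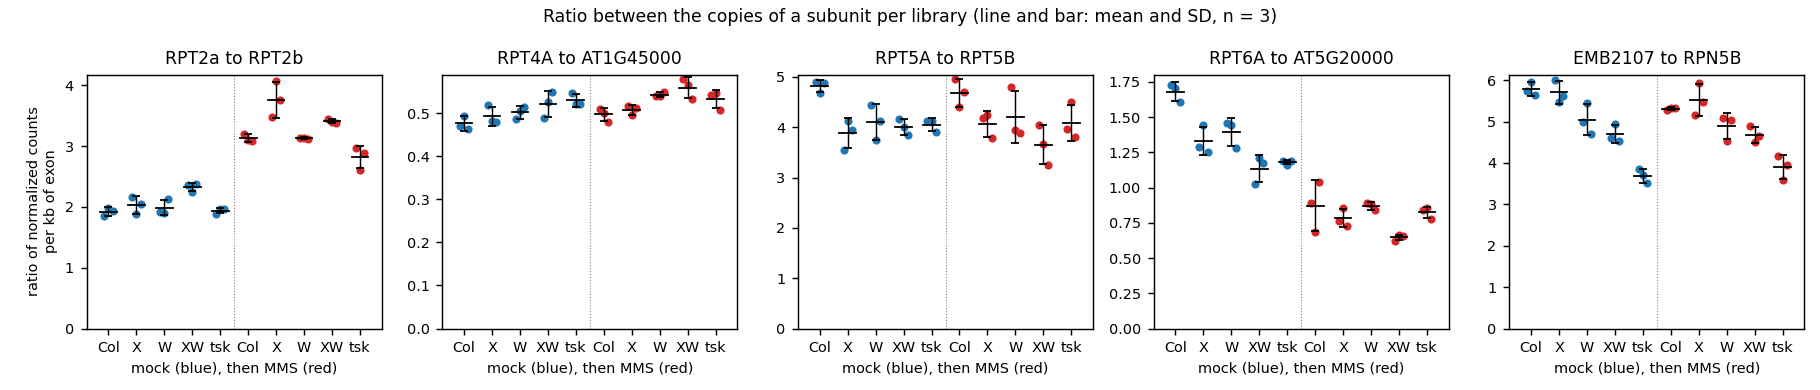
Ratio of normalized counts per kb of exon (vertical axis, from 0) between the copies of 5 subunits in each library, mock in blue and MMS in red, by genotype; lines and bars are the mean and SD of 3 libraries. The RPT2a to RPT2b ratio is higher and the RPT6A to AT5G20000 ratio lower in all MMS libraries than in the mock libraries of the same genotype.

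The 250 bases before each annotated gene start were searched on both strands for TGGGC, the core of the proteasome-related element that NAC053 and NAC078 are known to bind. It was present before 16 of 36 subunit genes, or 44.4%, against 25.6% of 20399 genes, and before 11 of the 20 other gene copies. The word GAANNTTC, as in heat shock elements, was present before 4 of 36 (11.1%) against 9.23%, and CTT and AAG set 7 bases apart, as in the palindrome bound by SOG1, before 4 of 36 against 8.97%. In Col the 16 genes with TGGGC had a median log2 response of 0.27, and 12 of them rose. The 20 without it had a median of 0.28, and 15 of them rose. The windows below show a pair of genes that rose and hold the word, a gene that did not rise and holds more matches, and the gene with the largest response, which holds none. Sequences are from RefSeq TAIR10.1, each written 5′ to 3′ on the strand of its gene, and capitals mark TGGGC or its reverse complement GCCCA. None overlaps an annotated exon.

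RPT1A has 2 matches at chr1:20068501-20068750 (minus strand), PBA1 has 3 at chr4:15188494-15188743 (plus strand), RPN1A has 4, of which a pair overlap, at chr2:8858712-8858961 (plus strand), and AT5G20000 has none at chr5:6756383-6756632 (plus strand).
RPT1A: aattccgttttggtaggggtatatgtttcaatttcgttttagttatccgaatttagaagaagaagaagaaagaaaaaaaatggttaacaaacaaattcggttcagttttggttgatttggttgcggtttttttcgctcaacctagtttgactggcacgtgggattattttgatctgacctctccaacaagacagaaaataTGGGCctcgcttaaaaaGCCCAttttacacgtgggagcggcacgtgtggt
PBA1: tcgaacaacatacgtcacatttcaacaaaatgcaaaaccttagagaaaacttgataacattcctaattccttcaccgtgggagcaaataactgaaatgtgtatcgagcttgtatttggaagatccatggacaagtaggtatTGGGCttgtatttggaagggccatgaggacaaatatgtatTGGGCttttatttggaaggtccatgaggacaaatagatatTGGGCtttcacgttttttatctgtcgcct
RPN1A: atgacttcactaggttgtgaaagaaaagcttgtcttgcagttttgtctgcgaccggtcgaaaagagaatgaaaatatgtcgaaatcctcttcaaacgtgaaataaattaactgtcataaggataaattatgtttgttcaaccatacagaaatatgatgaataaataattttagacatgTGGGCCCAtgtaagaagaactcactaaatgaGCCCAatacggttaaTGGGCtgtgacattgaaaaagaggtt
AT5G20000: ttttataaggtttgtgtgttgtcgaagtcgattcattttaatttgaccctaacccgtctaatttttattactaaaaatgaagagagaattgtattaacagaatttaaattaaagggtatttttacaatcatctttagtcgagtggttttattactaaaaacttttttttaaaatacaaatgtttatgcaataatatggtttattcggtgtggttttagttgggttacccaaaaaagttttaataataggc
A match is a description of these letters and not a binding site, and no match says only that the letters are absent from this window.

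Whether the response to MMS differed between a mutant and Col was tested as an interaction in the same limma model. For X, 0 of the 36 genes passed, with 1 at an unadjusted p under 0.05 and 0 by DESeq2 or edgeR, beside 1.08% of all genes with a larger and 0.908% with a smaller or opposite change. In W, 0 passed, with 3 at an unadjusted p under 0.05, all in the direction of a smaller rise, and 0 by the other tools, beside 4.4% and 2.62%. The split over all genes depended on the scaling, from 219 higher and 184 lower to 168 and 299 with library totals for X, and from 891 and 530 to 608 and 903 for W, where AT5G20000 was then called lower. In XW, 0 passed, with 5 at an unadjusted p under 0.05 and 0 by the other tools, beside 3.85% and 5.07%. The median log2 difference for XW was 0.092, with 31 of 36 differences above 0, and without the first XW mock library it was 0.0515. In tsk, 0 were higher and 1 lower, beside 1.37% and 1.13%, with 0 higher and 5 lower at an unadjusted p under 0.05 and 1 by each of the other tools. The split over all genes was 277 higher and 228 lower, and 368 and 172 in edgeR. The subunit gene called in tsk was AT5G20000, whose rise was smaller than in Col by a log2 difference of -0.49 ± 0.12 (SE), adjusted p = 0.028. It had 765, 810.3 and 816 normalized counts in tsk mock and 1357, 1270.1 and 1355 in tsk MMS. Thus the mock libraries of tsk lay above those of Col, and the MMS libraries lay within the range of those of Col. The call was lost when 1 library was left out in 6 of 12 cases, at adjusted p values up to 0.10.

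The mutants were next compared with Col within each treatment, and these comparisons share the Col libraries. In mock, few subunit genes differed. In X, 2 were higher and 0 lower, beside 4.29% and 3.2% of all genes. In W, 3 were higher and 0 lower, beside 6.05% and 7.08%. In XW, 7 were higher and 0 lower, beside 11.8% and 13.5%. In tsk, 6 were higher and 2 lower, beside 10.9% and 15.1%. For those that had 0 lower, the count at an unadjusted p under 0.05 was 0 in X, 0 in W and 2 in XW, and DESeq2 and edgeR called 3 and 1 genes in X, 2 and 3 in W and 8 and 7 in XW in either direction. The median log2 differences were 0.080, 0.091, 0.060 and 0.037. The count in X was 1 without replicate 1, 2 or 3 of Col or replicate 1 or 3 of X, and the count in W was 0 without replicate 3 of W and 1 without replicate 1 of Col.

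AT5G20000 was higher than in Col in the mock libraries of each mutant. It had 563, 543 and 629.6 normalized counts in Col, 805, 698 and 779.9 in X, 751, 674 and 739.8 in W and 738, 798 and 815 in XW, and no library of a mutant fell to the level of Col. The log2 differences were 0.40 in X (adjusted p = 0.0045), 0.32 in W (0.014), 0.44 in XW (0.00042) and 0.46 in tsk (0.00023). RPN5B, a lid gene, was higher in W, XW and tsk, by 0.24, 0.28 and 0.55. PAE1, of the alpha ring, was higher in the same 3, by 0.16, 0.18 and 0.25. In X the other call was RPT2a at 0.22, adjusted p = 0.048, which was lost in edgeR (0.053). The W calls were lost without some single libraries, with adjusted p up to 0.078 for AT5G20000, 0.084 for RPN5B and 0.11 for PAE1, whose call in W DESeq2 also missed (0.055).

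The XW mock calls depended in part on the first library. PAD1, the alpha-ring gene, had 2215, 1762 and 1758 normalized counts in XW against 1542, 1563 and 1636 in Col, and PAC1 had 2217, 1747 and 1778 against 1613, 1686 and 1685. For both genes the first library was the highest of the 3. The log2 difference of PAD1 was 0.27 (adjusted p = 0.0059) and that of PAC1 0.20 (0.02), and without the first library they were 0.16 (0.077) and 0.085 (0.23). The calls for RPN12a and PBA1 were also lost without it, whereas RPT2a, RPT5B, RPN1A and RPN10 were then called higher. 7 genes were higher and 0 lower in either case, and AT5G20000, RPN5B and PAE1 were called in both.

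After MMS the libraries labelled XW held more subunit transcript than those of Col. Of the 36 genes, 14 (38.9%) were higher and 0 lower, beside 12.8% and 12.5% of all genes, with a median log2 difference of 0.15 against -0.0049 over all genes. At an unadjusted p under 0.05, 24 were higher and 0 lower, and DESeq2 and edgeR called 16 and 18. The alpha ring gave 5 of 7, the beta ring 4 of 7, the RPN genes 3 of 12 and the ATPases 2 of 10. AT5G20000 had 1893, 1818 and 1780.5 normalized counts in XW against 1326, 1589 and 1169 in Col, a log2 difference of 0.44 ± 0.088 (SE), adjusted p = 0.00043. RPT5B had 773, 825 and 912 against 586, 665 and 609.9, a difference of 0.43 ± 0.091 (SE), adjusted p = 0.00082. PBD1 differed by 0.31 and RPN5B by 0.28. In AT5G20000, RPT5B, PBD1 and RPN5B all XW libraries lay above all Col libraries. Without the first Col MMS library 8 genes were called, so the count rests in part on that library. Related genes higher in the same comparison were PBD2 (0.37), PAA2 (0.25) and PAD2 (0.33) among the other copies, of which 6 of 20 were higher and 1 lower. AT1G67250, the maturation factor UMP1, differed by 0.41 and NAC053 by 0.33. In these libraries 7 of 11 heat shock protein genes and 3 of 7 leaf markers were also higher than in Col, and of 6 root markers PYK10 was higher (0.32) and CASP1 lower (-0.46). The part of these markers in the difference was not tested. Heat shock and leaf genes were also called higher than in Col after MMS in W and X, where few or no subunit genes were called. HSP101 was higher by 1.35 in W and 0.73 in X (limma, adjusted p = 2.9e-06 and 0.0049). The leaf marker CAB2 was higher by 0.65 and 0.94 (limma, adjusted p = 0.0074 and 0.00022). AT5G51440, a heat shock protein gene, was called in neither.

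After MMS, X had 1 gene higher and 0 lower, beside 6.46% and 4.5% of all genes, with 8 higher and 1 lower at an unadjusted p under 0.05 and 2 calls by DESeq2 and 1 by edgeR. This was PBD1, with 725, 735 and 808 normalized counts against 643, 666 and 623, at 0.23 ± 0.071 (SE), adjusted p = 0.036. Leaving out the second Col MMS library gave 6 genes, leaving out replicate 1 of X gave 2, and leaving out replicate 1 or 3 of Col or replicate 2 or 3 of X gave 0. With library totals 0 genes were higher and 1 lower, AT2G32730, and the split over all genes went from 1309 higher and 911 lower to 1025 and 1478. W had 0 genes called, beside 7.75% higher and 3.93% lower of all genes, with 2 higher at an unadjusted p under 0.05 and 0 by DESeq2 or edgeR. The split over all genes for W was 1569 higher and 796 lower, and 1276 and 1405 with library totals.

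In tsk after MMS, 3 subunit genes were higher than in Col and 7 lower, beside 12.8% and 17.5% of all genes. With reads scaled by library totals the count was 3 higher and 2 lower, and the split over all genes went from 2584 higher and 3544 lower to 3556 and 2232. The lower calls thus depend on the scaling for 5 of the 7 genes. In the same comparison 3 of 11 heat shock protein genes, 1 of 7 leaf markers and 2 of 6 root markers were also lower, and their part was not tested. The 2 subunit genes that were lower on both scales were AT4G24820 and ATS9. AT4G24820 had 2487, 2413 and 2472 normalized counts against 2985, 3250.3 and 2945, without overlap, a log2 difference of -0.32 ± 0.051 (SE), adjusted p = 2.2e-05. ATS9 had 2675, 2581 and 2531 against 2952, 3130.5 and 2899, a difference of -0.21 ± 0.046 (SE), adjusted p = 0.0012. The reads of AT4G24820 are uncertain, since it overlaps other genes as given above. Of the 20 tested genes nearest to AT4G24820, 0 were higher and 7 lower in tsk after MMS, with a median log2 difference of -0.185. Of the 20 nearest to ATS9, 1 was higher and 4 lower, with a median of -0.091. The part of the neighbourhood in these differences was not tested. In tsk mock the 2 lower calls, RPN8A at -0.21 and AT4G24820 at -0.15, were not called with library totals, where 8 genes were higher and 0 lower and the split over all genes was 3116 higher and 1428 lower in place of 2199 and 3058.

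The higher genes in tsk kept their call with library totals. PBG1, of the beta ring, had 1959.7, 1879 and 1855 normalized counts in tsk mock against 1250.3, 1304 and 1401 in Col, and 2143, 2047 and 2249.5 against 1399, 1534 and 1459.5 after MMS. In both treatments all tsk libraries lay above all Col libraries, with log2 differences of 0.53 ± 0.054 (SE, adjusted p = 1.9e-08) and 0.55 ± 0.054 (6.7e-09). Genes beside PBG1 also differed. Of the 20 nearest tested genes, which span chr1:21082490-21204856 in TAIR10.1, 16 were higher in tsk in mock and 16 after MMS, with median log2 differences of 0.42 and 0.55. PBE1 differed by 0.22 in mock and 0.22 after MMS, and its 20 neighbours had medians of 0.20 and 0.21, with 9 and 6 of them higher. RPN5B had 433, 448 and 449.6 normalized counts in tsk mock against 307, 299.9 and 304, a difference of 0.55 ± 0.065 (SE), adjusted p = 2.4e-07, and one of 0.38 after MMS. Its 20 neighbours had medians of -0.0070 and -0.022. The ratio of EMB2107 to RPN5B, both genes of RPN5, was 3.69 ± 0.172 in tsk mock against 5.78 ± 0.169 in Col mock, with no overlap. The other copies included PAD2, which was higher in tsk by 0.81 in mock and 0.54 after MMS.

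**Figure D5:**
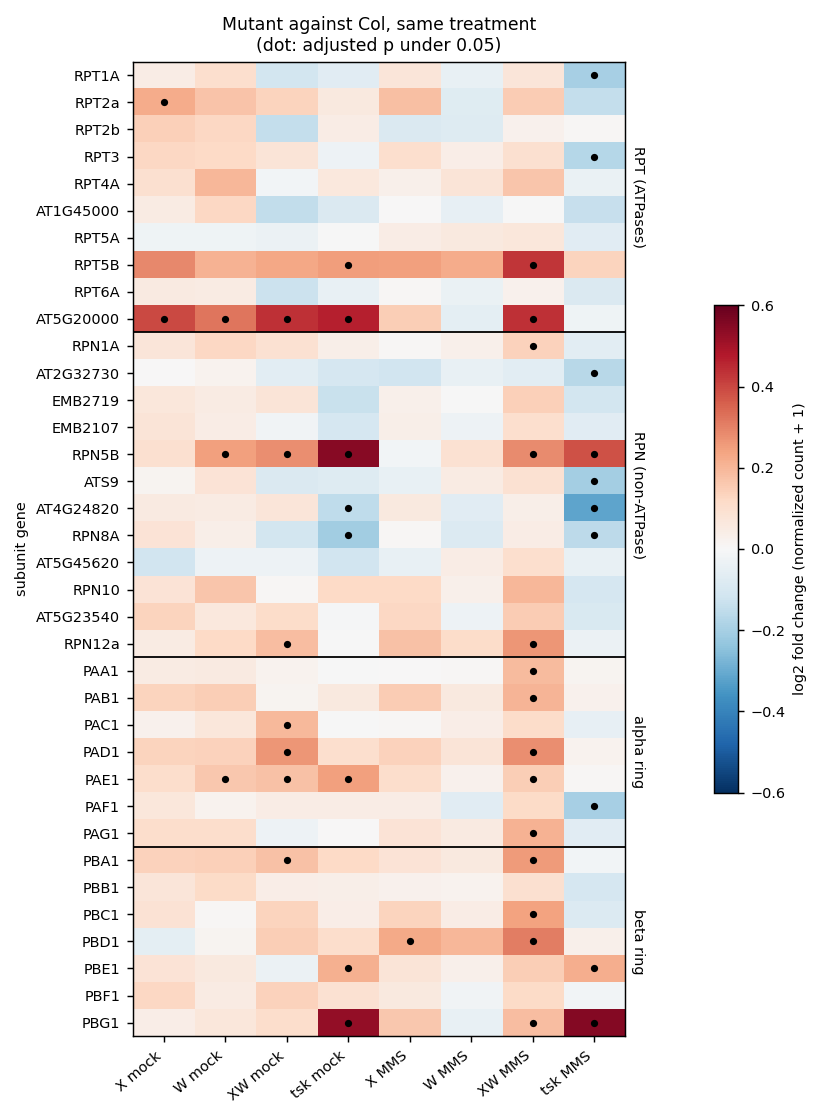
Log2 difference from Col under the same treatment for the 36 subunit genes (rows, grouped by role) in 4 mutants, mock in the left 4 columns and MMS in the right 4; a dot marks an adjusted p under 0.05 in limma. All 8 columns share the Col libraries of their treatment, PBG1 and RPN5B are the darkest of the tsk columns, and the XW MMS column has 14 dots.

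Of 20135 genes outside the lists, those whose log2 level over the 30 libraries was most like the mean log2 level of the subunit genes were mtLPD2, ASP2 and SERPIN1. As mock and MMS libraries form separate clusters, Pearson's r is given within each. For mtLPD2 it was 0.613 over the 15 mock and 0.871 over the 15 MMS libraries, for ASP2 0.642 and 0.912, and for SERPIN1 0.517 and 0.837.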

How the data were processed

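RNA from 30 libraries was measured by paired-end sequencing. Reads were aligned with STAR to TAIR10, and DESeq2 1.30.1 was used, per the submitters' processing notes; counter, annotation and strand are not given in the sources used here. The authors deposited normalized counts, a signal of reads divided by a size factor per library, from which whole reads were recovered for 100% of values (tolerance 0.01). No listed gene had fewer than 1 read in any library, so the table had been filtered. The authors also deposited FPKM values. The whole-number gene lengths that these imply had a Spearman correlation of 0.002 with annotated gene lengths over 20403 genes, so FPKM served only for comparisons within a gene, and levels between genes used normalized counts per kb of TAIR10.1 exon. Of the 20404 loci 20403 were found in TAIR10.1, and printed coordinates are from TAIR10.1.

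Genes with at least 10 normalized counts in at least 3 libraries (20256; 148 were removed) were fitted in limma 3.58.1 (R 4.3.3) with trend on log2(normalized count + 1), 1 coefficient per group and 20 residual df. Benjamini-Hochberg adjustment covered all genes tested, with calls at an adjusted p under 0.05. Fold changes are on that log2 scale. Groups, 17 comparisons and their alternatives (DESeq2 1.42.0 and edgeR 4.0.16 on recovered reads, FPKM, library totals, a pseudocount of 10, no filter, compared groups alone, a replicate block, each library left out) are compared in the closing section. The scripts were tested on simulated data. Errors are SD over 3 libraries or SE of the fit.

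The members and lists were chosen with earlier results of these data known. Up to 4 called subunit genes in each direction with the largest change were given full statistics, along with gene pairs, up to 3 called genes of each other list with the smallest adjusted p, the targeted genes and the 3 genes most like the members' mean. Names and roles follow RefSeq. The library totals scaling and leaving out the first XW mock library as a separate account were chosen after seeing the data. Deposited per-library files were not used here.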

Additional observations from a re-analysis of the deposited data

Results flagged for a closer look

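The response to MMS differed from that of Col, by the interaction term in limma, for 1 subunit gene and 5 results for related genes. Over all genes tested, the interaction was called higher and lower for 1.08% and 0.908% in X and 4.4% and 2.62% in W. In XW these shares were 3.85% and 5.07%, and in tsk 1.37% and 1.13%. Whether the related genes were called more often than all genes was not tested. AT5G20000 rose less in tsk than in Col, by -0.4906 on the log2 scale (adjusted p = 0.028). UBQ3, a polyubiquitin gene, had 13962, 13017 and 13840.0 normalized counts in Col mock and 10128, 11450.0 and 9411 in Col MMS, against 12470.0, 12778 and 12913 and 12690.0, 12144 and 12682 in X and 9458, 10825 and 10454 and 10768, 10341 and 10203 in W. Its log2 difference in response was 0.3767 in X (adjusted p = 0.019) and 0.4303 in W (adjusted p = 0.0026), and in W the mock libraries were lower than those of Col. NAC053 rose more in W by 0.4136 (adjusted p = 0.049) and in XW by 0.4433 (adjusted p = 0.028), but without the first XW mock library the latter was 0.34 (adjusted p = 0.091). It had 769, 856 and 664 normalized counts in Col MMS, 1011, 949 and 882 in W MMS and 1012, 978 and 886 in XW MMS. UBA 2, a ubiquitin-activating enzyme gene, had a difference of -0.2826 in W (adjusted p = 0.044). These comparisons share the Col libraries.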

How the results depend on the processing

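Of 185 calls of subunit genes, 2596 values under the alternatives were compared: 2441 stayed past the threshold with the same direction, 155 missed it and 0 reversed. Of 262 counts under the alternatives 44 moved by over 1.5 times. For X against Col in mock the count of 2 was 1 in edgeR, on FPKM values and with library totals, and 7 with the compared groups alone. With the compared groups alone it was also 5 in W and 2 in XW mock, and 1 for the W interaction, where fewer libraries enter the fit. DESeq2 gave 2 for X after MMS. FPKM values and library totals gave 5 in tsk after MMS and 1 for the W interaction. With 1 library left out, the counts ranged over 26 to 27 for the MMS response in Col, 27 to 29 in X, 22 to 25 in W, 31 to 32 in XW and 23 to 27 in tsk. In mock they ranged over 1 to 3 in X, 0 to 2 in W, 5 to 10 in XW and 5 to 7 in tsk. After MMS they ranged over 0 to 6, 0 to 1, 8 to 16 and 7 to 10. For the interactions they were 0 in X, 0 to 1 in W, 0 to 2 in XW and 0 to 2 in tsk. The cause of these shifts was not tested. A replicate block gave 8 higher and 1 lower for XW in mock and the count as reported elsewhere, although RPT5B was then called in X mock in place of RPT2a (adjusted p = 0.05); same-numbered libraries correlated between -0.106 and 0.092, so the numbers were not taken as pairs. The effect of depth on the calls was not tested, and 3 libraries a group limit the precision of small differences.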
